A study of Mus musculus with 661 samples.

Results

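The genes described here are 10 members of the Notch pathway: the receptors Notch1, Notch2, Notch3 and Notch4, the ligands Dll1, Dll4, Jag1 and Jag2, and the targets Hes1 and Hey1. They were taken by gene symbol from a count table of 45808 symbols, and all 10 were present. The table covers 661 single cells of the mouse bone marrow stroma, 336 from young and 325 from old mice. All were wild-type C57BL/6 mice with no allele or treatment in these groups. The text of the study gives about 2 months for young and 24 months for old mice, while its methods allow 6 to 12 weeks for young mice and 18 months or more, up to 31, for old ones. Both sexes were bred in house, and some old mice came from other colonies. Cells were sorted one to a well into 6 populations. MSC-S (mesenchymal stromal cells positive for Sca-1), mOPr (osteoprogenitors positive for PDGFRα), OPr (osteoprogenitors negative for it) and AEC (arteriolar endothelial cells, high in CD31 and Sca-1) came from the endosteum, the inner bone surface, while MSC-L (mesenchymal stromal cells positive for the leptin receptor) and SEC (sinusoidal endothelial cells, low in CD31 and Sca-1) came from the central marrow.

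There were 53 young and 58 old MSC-L, 59 and 59 MSC-S, 26 and 26 mOPr, 44 and 29 OPr, 84 and 82 AEC, and 70 and 71 SEC. The labels name no mouse, so each age of a population counted as 1 sample. Nothing was tested between samples, agreement of replicates could not be checked, and differences are given as values. A cell held between 57517 and 1488549 counts of nuclear genes, with a median of 416359. Levels are in CPM, the counts of a gene summed over a group and scaled to the nuclear total of that group, and their 95% intervals are exact Poisson intervals. A cell is said to carry a gene at 10 CPM or more, and shares of cells have exact Clopper-Pearson intervals. Where 0 cells carried a gene, the limit given is that of 3 cells. The reads carry no molecular identifiers, so all intervals and floors cover counting error only.

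Notch signaling passes between touching cells. A ligand of the Delta or Jagged family on one cell binds a Notch receptor on its neighbor, the receptor is cleaved, and its freed intracellular part enters the nucleus, where it joins the DNA-binding protein Rbpj and switches on targets of the Hes and Hey families. In vessels the pathway is known for setting arterial identity and restraining sprouting, and in the marrow Notch ligands on stroma and endothelium are known as signals to blood cells.

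The sorted labels were checked against the genes behind the gates. Pecam1, which encodes CD31, stood at 2040 CPM in young AEC and 712 CPM in young SEC, and between 0.658 and 6.55 CPM in the young mesenchymal sorts. Lepr stood at 3160 CPM in young and 3239 CPM in old MSC-L, and Ly6a, which encodes Sca-1, at 912 and 1304 CPM in young and old MSC-S. Pdgfra was lower in OPr (93.3 CPM young, 193 CPM old) than in mOPr (464 and 1123 CPM), in the direction of the gate. Lepr was also high outside its gate, at 1333 CPM in old OPr and 1047 CPM in old mOPr against 362 and 144 CPM in the young ones.

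Some cells stood apart from their labels. In old OPr, 8 of 29 cells carried at least 7 of 15 hematopoietic markers, and the 15 markers together reached 11122 CPM, led by S100a9 at 4041 CPM, with none at 0. In young OPr the same list summed to 34.3 CPM. Of the old SEC, 1 of 71 cells carried as many, and the list summed to 483 CPM in old SEC (led by Lyz2, Cybb at 0) and 180 CPM in young SEC (led by Lcp1, none at 0). All populations were sorted as negative for CD45. Ptprc, which encodes CD45, nevertheless stood at 384 CPM in old OPr, where 8 of 29 cells carried it. At least 7 of 12 mesenchymal markers were carried by 12 of 70 young and 6 of 71 old SEC, where the list summed to 6693 and 4316 CPM, led by Cxcl12, and by 2 young and 2 old AEC. At least 5 of 10 mural markers, genes of pericytes and smooth muscle, were carried by 6 young and 4 old AEC and by 1 cell each of old SEC, mOPr and OPr. Doublets were not called here by any tool. The study's figure of the endothelial clusters marks some cells as doublets of mesenchymal and endothelial cells, and some as pericytes. The study's clusters also divided the sorts unevenly by age: 10 of 29 old OPr lay in M1 or M2, the clusters that hold nearly all MSC-L, against 3 of 44 young ones, and 14 of 26 old mOPr against 2 of 26. All SEC had library numbers in the highest of 3 separate number ranges in the labels, and AEC was the one other population there.

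**Figure D1:**
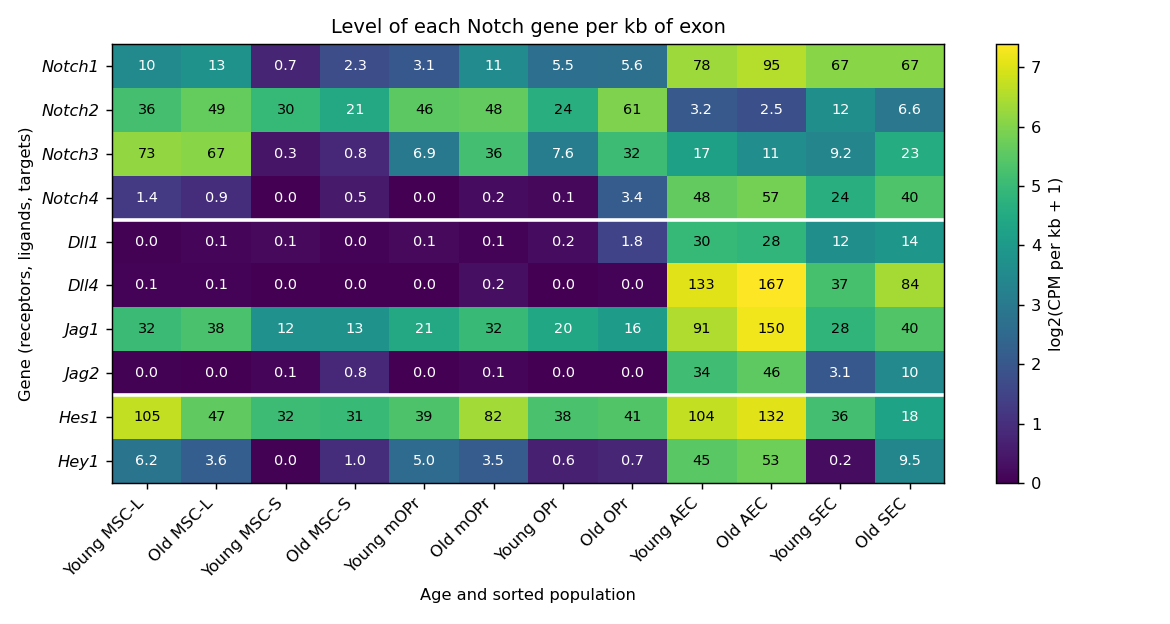
Levels of the 10 genes in CPM per kb of exon, with the 12 age and population groups along the horizontal axis and the genes along the vertical axis; the color gives log2(CPM per kb + 1) and each cell prints the CPM per kb. Dll4 reaches 133 and 167 in young and old AEC, and Notch3 reaches 72.6 and 67 in young and old MSC-L.

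Notch1, a receptor used in arterial endothelium, lies on chromosome 2 from 26457903 to 26516663 (ENSMUSG00000026923.15, GRCm38, by the GENCODE M21 annotation, as for all gene coordinates here). It stood at 1114 CPM in young and 1347 CPM in old AEC, and at 951 and 948 CPM in young and old SEC. In the mesenchymal sorts it stood at 149 and 180 CPM in MSC-L, 10.2 and 33.1 in MSC-S, 44.6 and 155 in mOPr, and 78.3 and 79.9 in OPr. All 4 endothelial groups were above all 8 mesenchymal ones. Of the cells, 97.6% of young AEC and 100.0% of young SEC carried it. Its exons overlap those of 2 transcripts on the other strand over 1482 bases, and counting without strand cannot separate these. The same holds for 488 bases of Notch3, 214 of Dll4 and 867 of Dll1, and 541 bases of Notch2 overlap a gene on its own strand.

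Notch2, which lies on chromosome 3 from 98013527 to 98150361 (ENSMUSG00000027878.11), had the opposite distribution. Its level was 386 and 525 CPM in young and old MSC-L, 324 and 228 in MSC-S, 491 and 514 in mOPr and 257 and 663 in OPr. In AEC it was 34.1 and 27 CPM and in SEC 127 and 71 CPM. Between 86.4% and 96.6% of the cells of each mesenchymal group carried this receptor.

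Notch3, a receptor of mural cells around vessels, lies on chromosome 17 from 32120820 to 32166852 (ENSMUSG00000038146.8). It stood at 587 CPM (577 to 597) in young and 542 CPM (532 to 552) in old MSC-L, where 92.5% (81.8 to 97.9) and 84.5% (72.6 to 92.7) of cells carried it. In MSC-S the level was 2.78 and 6.2 CPM and the shares were 3.39% and 6.78%. Within the stroma, this receptor thus marked MSC-L off from MSC-S at both ages. mOPr and OPr lay between, at 56.2 and 61.7 CPM in the young and 288 and 261 CPM in the old groups. In AEC the level was 140 and 91.8 CPM, and in SEC it was 74.4 and 186 CPM. The endothelial values came from few cells: the 8 cells of cluster E2, 7 of them AEC, stood at 2494 CPM, and outside E1 and E2 the level was 55.2 and 10.5 CPM in AEC and 6.49 and 6.68 CPM in SEC. Notch3 was among the genes that guided the study's clusters, so cluster values are a description.

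Notch4, a receptor known from endothelium, lies on chromosome 17 from 34564268 to 34588503 (ENSMUSG00000015468.14). Its level was 388 and 458 CPM in young and old AEC and 192 and 320 CPM in SEC. Across 7 of the 8 mesenchymal groups it ran from 0.0686 CPM in young mOPr to 11.3 CPM in young MSC-L, where 1 cell held 73.3% of the counts and the level without it was 3.06 CPM. Old OPr stood at 27.6 CPM, but 1 cell held 99.2% of those counts, and without the cells that carried hematopoietic markers the level was 0.187 CPM.

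Per kb of exon, the order of the receptors differed between cell types. In young MSC-L it was Notch3 (72.6 CPM per kb), Notch2 (35.8), Notch1 (10.5) and Notch4 (1.40). In young AEC it was Notch1 (78.3 CPM per kb), Notch4 (48.1), Notch3 (17.3) and Notch2 (3.16). Both orders were the same in each range that held the cells. At least 2 receptors were carried by 92.5% of young MSC-L, 83.3% of young AEC and 92.9% of young SEC, but by 13.6% of young MSC-S.

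Among the ligands, Dll4, which is known for restraining sprouting in the endothelium, lies on chromosome 2 from 119325784 to 119335962 (ENSMUSG00000027314.6). It stood at 512 CPM (504 to 519) in young and 643 CPM (635 to 652) in old AEC, and at 143 and 322 CPM in young and old SEC. None of the 8 mesenchymal groups passed 0.881 CPM. Of the young cells, 73.8% of AEC and 70.0% of SEC carried it, against 0 of 53 MSC-L, which allows a share of up to 5.66%.

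Jag2, which lies on chromosome 12 from 112907819 to 112929776 (ENSMUSG00000002799.6), separated the endothelial sorts further. It stood at 237 and 322 CPM in young and old AEC and at 21.6 and 70.4 CPM in SEC. It was carried by 75% and 78% of AEC but by 8.57% (3.21 to 17.7) and 23.9% (14.6 to 35.5) of SEC. In young SEC 1 cell held 87.1% of the counts, and without it the level was 2.83 CPM. The mesenchymal groups stood between 0 and 5.49 CPM.

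Jag1, which lies on chromosome 2 from 137081456 to 137116644 (ENSMUSG00000027276.7), was the ligand measured on both sides. It stood at 528 and 875 CPM in young and old AEC, 161 and 235 in SEC, 186 and 220 in MSC-L, 72.0 and 75.3 in MSC-S, 123 and 184 in mOPr and 117 and 93.1 in OPr. In the highest range of library numbers alone, which holds all SEC, Jag1 stood at 188 and 619 CPM in young and old AEC. Dll1, a further Delta ligand on chromosome 17 from 15367354 to 15376872 (ENSMUSG00000014773.13), stood at 126 and 119 CPM in AEC and 49.7 and 59.9 CPM in SEC, and at no more than 7.67 CPM in a mesenchymal group. In the AEC of the highest range Dll1 stood at 65.1 and 65.6 CPM, near its level in SEC.

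Ligands were thus carried in number by endothelium. At least 2 of the 4 were carried by 84.5% of young AEC and 65.7% of young SEC, and by 0 of 53 young MSC-L, in which Jag1 stood nearly alone. Per kb of exon, Dll4 (133 CPM per kb) led in young AEC, followed by Jag1 (90.6), Jag2 (34) and Dll1 (29.8). This order differed between ranges: Jag1 (112) stood above Dll4 (83.1) in the lowest, Dll1 (40.1) above Jag2 (32.3) in the middle and Jag2 (44.2) above Jag1 (32.2) in the highest range. In young SEC the order was Dll4 (37.2 CPM per kb), Jag1 (27.7), Dll1 (11.8) and Jag2 (3.10).

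Hes1, a transcriptional repressor induced by Notch and by other signals, lies on chromosome 16 from 30064384 to 30067796 (ENSMUSG00000022528.8). It was measured in every group, at 213 and 269 CPM in young and old AEC, 72.7 and 37.5 in SEC, 213 and 96.3 in MSC-L, 66 and 63.1 in MSC-S, 79 and 166 in mOPr and 76.8 and 83.7 in OPr. Hey1, a repressor of the related Hey family on chromosome 3 from 8663359 to 8667256 (ENSMUSG00000040289.8), was narrower. It stood at 146 and 172 CPM in AEC, at 0.593 and 31 CPM in SEC, at 20.3 and 11.8 CPM in MSC-L and at 16.2 and 11.4 CPM in mOPr, and at no more than 3.16 CPM in MSC-S and OPr. Within AEC it was carried by 47.7% (38.8 to 56.7) of the 128 cells that carried Dll4 and by 10.5% (2.94 to 24.8) of the 38 that did not. After each cell was thinned to 100000 counts these shares were 50.4% and 11.1%. In AEC the shares with and without Jag1 were 45.5% (36.4 to 54.8) and 22.2% (11.2 to 37.1). With and without Jag2 they were 44.9% (36.1 to 54) and 20.5% (9.30 to 36.5), and both pairs of intervals overlapped. In SEC the shares with and without Dll4 were 6.74% and 3.85%, and 5.15% and 6.98% after thinning. The median count was 416784 in the AEC with Dll4 and 392196 in those without. These AEC pool both ages, 3 ranges and all clusters, and Hey1 was a guide gene of the clustering. Its share ran from 17.4% to 55% between age and range groups of AEC. The part of age, range and cluster in these shares was not tested.

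The comparison of AEC with SEC asks how arteriolar and sinusoidal endothelium differ. It was made in the highest range of library numbers, which both share, and a gene is counted when (CPM + 1) differed at least 2-fold. In the young cells, 6 of 10 genes did so, against 42.2% of all genes that passed a filter of 100 counts in 5 cells over the 2 groups together. All 10 passed at each age. Dll4, Jag2, Hes1, Hey1 and Notch3 were higher in AEC, by 2.51, 3.77, 1.07, 5.29 and 1.80 on the log2 scale, and Notch2 was lower (-2.50). By cluster identity in place of the sort, which left 7 AEC, Notch3 was at -0.13, and Hes1 was at 0.98 without the top cell of each group. In the old cells the count was 4 of 10, against 42.9% of all genes, with Dll4 (1.49), Jag1 (1.39), Jag2 (1.71) and Hes1 (2.24) higher in AEC. In the young cells Hey1 had 397 counts in AEC and 13 in SEC. It passed the filter through AEC and had to differ, so nothing is read from the young count. The old count lies near the background, and a share near the background is not a result about these genes. Hey1 at old age was at -0.65, with 19.5 CPM in the old AEC of that range and 31 CPM in old SEC, and at 6.29 by cluster identity.

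Against MSC-S, in the 2 ranges that both share, AEC differed in 10 of 10 genes at each age, where 44.7% of all genes did so in young and 46.3% in old cells. Notch2 was lower in AEC, at -3.10 and -3.45 on the log2 scale, and the other members were higher. All 10 passed the filter, but several did so through AEC alone: young MSC-S held 0 counts of Dll4, 3 of Hey1 and 4 of Notch4. Such genes had to differ, so nothing is read from the count. MSC-L differed from MSC-S in 6 of 10 genes at each age, against 45.5% of all genes in young and 49% in old cells. In the young cells 7 of the 10 passed the filter and in the old cells 8, some of them through 1 group alone, so nothing is read from these counts either.

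Gene by gene, with 1 CPM added to each level, the log2 ratio of MSC-L to MSC-S was 7.28 in young and 6.24 in old cells for Notch3. Hey1 was at 4.29 and 1.62, Notch1 at 3.75 and 2.41, Notch4 at 3.46 and 0.87, Hes1 at 1.68 and 0.60, Jag1 at 1.36 and 1.54 and Notch2 at 0.25 and 1.20. In old MSC-S 1 cell held 98.4% of the Hey1 counts, and without it the level was 0.0522 CPM, while in young MSC-L 1 cell held 73.3% of those of Notch4. Without the top cell of each group Hey1 was at 3.63 and 3.12 and Notch4 at 1.90 and 0.67. Jag2 went the other way in old cells, with 0 counts in MSC-L and 5.49 CPM in MSC-S, where 1 cell held 60% of the counts and the level without it was 2.24 CPM. In the lowest range alone, 3 of the 10 differed in the young cells (Notch1, Notch3 and Hey1), with 6 past the filter, against 50% of all genes there.

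**Figure D2:**
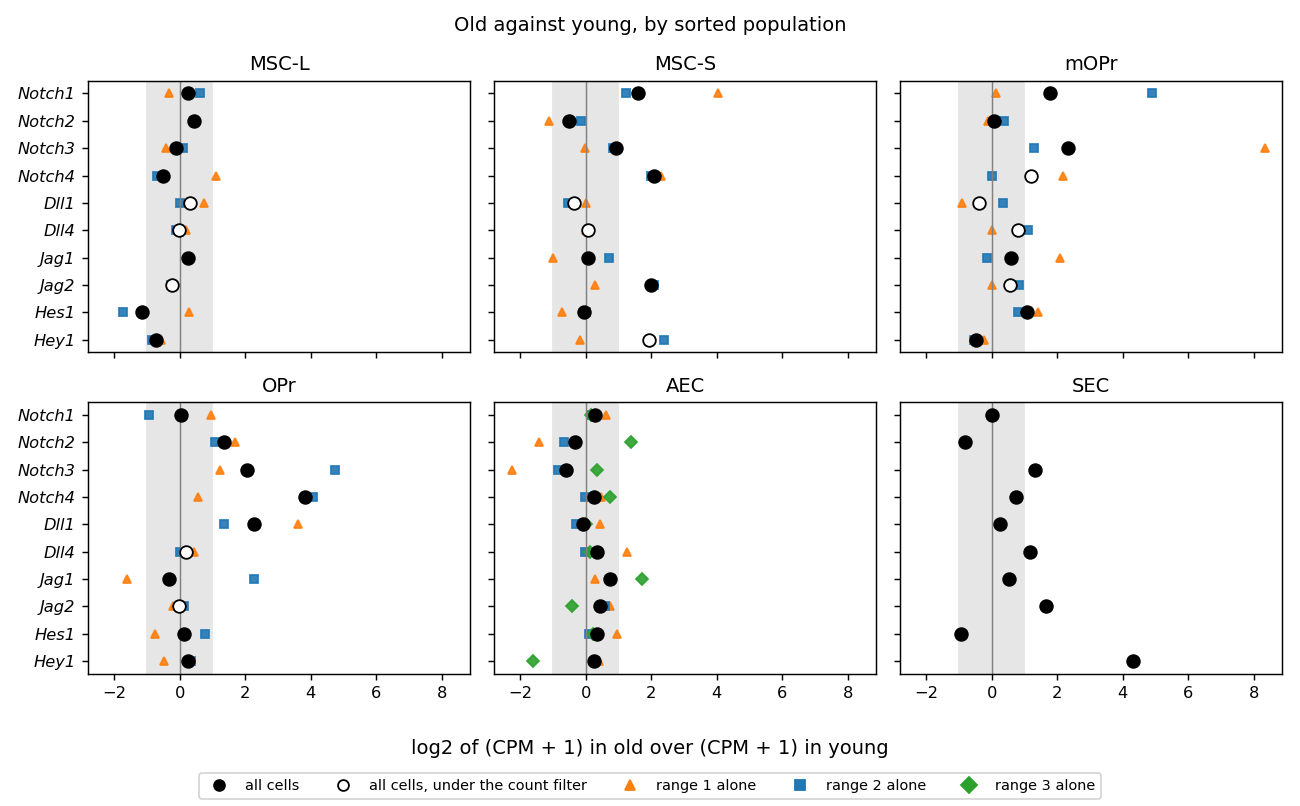
Log2 of (CPM + 1) in old over (CPM + 1) in young cells for the 10 genes in each of the 6 sorted populations. Circles use all cells and are open where a gene was under the count filter, other symbols use 1 range of library numbers alone, and the gray band spans less than 2-fold; in AEC all circles lie in the band, and in SEC Hey1 lies at 4.33.

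Between ages, all 10 genes passed the filter in AEC and in SEC, 8 in OPr, 7 in MSC-L, 7 in MSC-S and 6 in mOPr. AEC differed in 0 of 10 genes, against 21.1% of all genes. The largest ratio was that of Jag1, at 0.73 on the log2 scale. Within single ranges the values were wider: in the lowest range Dll4 was 1.28 higher in old cells, while Notch3 (-2.26) and Notch2 (-1.41) were lower. In the highest range Jag1 (1.71) and Notch2 (1.39) were higher and Hey1 (-1.61) was lower, so Notch2 differed in direction between ranges. Without the cells that carried mural markers Notch3 was at -2.20 in AEC.

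In SEC, 4 of 10 genes differed between ages, against 20.7% of all genes: Dll4 (1.16), Jag2 (1.66), Hey1 (4.33) and Notch3 (1.31), all higher in old cells. Hey1 had 13 counts in young and 643 in old SEC, so it passed the filter through old SEC and had to differ, and nothing is read from the count. For Dll4 the sum and the typical cell went apart. Its median cell stood at 62.6 CPM in young and 37.3 CPM in old SEC, and the share of carrying cells was 70.0% and 56.3%. Of the old SEC, 8 cells lay in E3 or E4, the clusters of most AEC, where no young SEC lay. These 8 stood at 1139 CPM of Dll4, 518 of Jag2 and 217 of Hey1. Among SEC in cluster E7, 59 young and 44 old, the levels in young and old were 155 and 187 CPM for Dll4, 1.61 and 15.0 for Jag2 and 0.0555 and 0.232 for Hey1. Notch3 turned on 1 cell, which held 75.2% of the counts in old SEC, and without the top cell of each age the ratio was -0.29. Notch3, Jag2 and Hey1 were guide genes of the clustering.

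**Figure D3:**
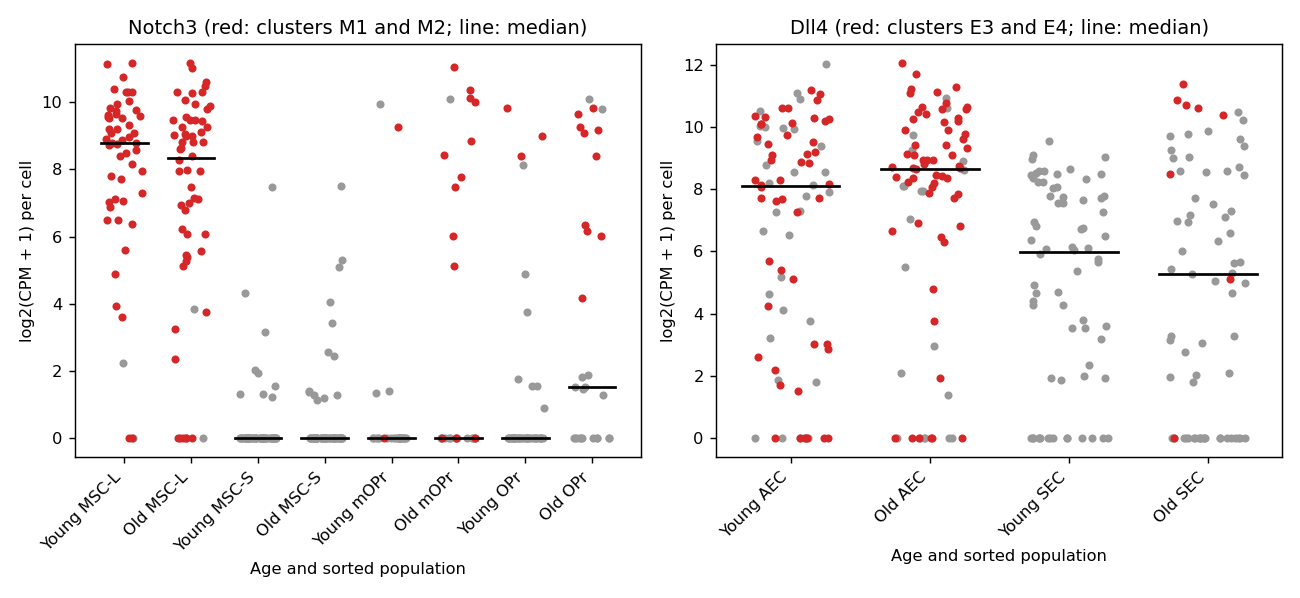
Log2(CPM + 1) per cell of Notch3 in the 4 mesenchymal sorts and of Dll4 in the 2 endothelial sorts, by age. Each point is 1 cell, red points lie in clusters M1 and M2 or in E3 and E4, and the line is the median; most cells with high Notch3 in old mOPr and OPr are red, as are 8 old SEC in the plot of Dll4.

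In mOPr, 3 of 10 genes differed between ages, against 44.5% of all genes, and 6 of the 10 had passed the filter. Notch3 (2.34), Notch1 (1.77) and Hes1 (1.06) were higher in old cells. Notch1 stood at 87.4 and 96.3 CPM in young and old mOPr of the lowest range and at 5.51 and 192 CPM in the middle one. Hes1 was at 0.80 in the middle range and at 0.93 with size factors. Notch3 was carried by 2 of 26 young and 11 of 26 old cells. The 14 old mOPr in M1 or M2 stood at 422 CPM of Notch3 and the other 12 at 139 CPM, which came from 1 cell. The 24 young mOPr outside M1 and M2 stood at 41.9 CPM, and 1 cell held 99.7% of it. The 10 mural markers summed to 489 CPM in young mOPr (4 at 10 CPM or more, led by Cspg4, Rgs5 at 0) and to 2245 CPM in old mOPr (7, led by Acta2, Cnn1 at 0). Of the 26 old mOPr, 1 carried Acta2, 1 Myh11 and 2 Tagln, so the sum lay in few cells, and their part in the Notch3 difference was not tested. With M1 and M2 left out of both ages, a choice made after seeing the data, 1 of 10 genes differed, with 4 past the filter, against 54.4% of all genes in the same cells.

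In OPr, 4 of 10 genes differed, against 45.2% of all genes: Notch2 (1.36), Notch3 (2.06), Notch4 (3.82) and Dll1 (2.28), all higher in old cells. Of the 10, 8 had passed the filter, Notch4 and Dll1 of them through old OPr (589 and 30 counts in old and young cells, and 164 and 23), so these 2 had to differ and nothing is read from the count. Dll1 was low, at 7.67 CPM in old OPr, and was carried by 3 of 29 old and 1 of 44 young cells. Notch3 stood at 404 CPM in the 10 old OPr of M1 or M2, at 144 CPM in the other 19 and at 4.95 CPM in the 41 young OPr outside those clusters. The 144 CPM rested on the 2 cells of the 19 that carried the gene, and without the top one it was 64.5 CPM. The 10 mural markers summed to 748 CPM in young OPr (4 at 10 CPM or more, led by Cspg4, Kcnj8 at 0) and to 2446 CPM in old OPr (7, led by Acta2, none at 0), where Acta2 was carried by 8 and Tagln and Myh11 by 1 of 29 cells. The value of Notch4 rested on the cell named above. Without the cells with hematopoietic markers Notch3 stood at 348 CPM and Notch2 at 559 CPM in old OPr. With those cells left out 3 of 10 genes differed, with 7 past the filter, against 44.8% of all genes. With M1 and M2 left out of both ages 5 of 10 differed, with 8 past the filter, against 54.2% of all genes: the same 4, with Notch3 at 4.61, and Notch1, which was lower in old cells (-1.76). Cells with hematopoietic markers, 8 of the 29 old OPr, were not left out of this setting or of the 19 old OPr above. The part of those cells and of the mural markers was not tested.

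In MSC-L, 1 of 10 genes differed between ages, against 25.4% of all genes. This was Hes1, which was lower in old cells (-1.14). It was not lower in each range: young and old MSC-L stood at 98.5 and 121 CPM in the lowest range and at 278 and 82.7 CPM in the middle one. By the mean over cells it was at -0.82 and after thinning at -0.93. In MSC-S, 3 of 10 differed, against 19.7% of all genes, with Notch1 (1.61), Jag2 (1.99) and Notch4 (2.07) higher in old cells. Notch4 and Jag2 passed the filter through old MSC-S, with 4 and 22 counts in young cells, and Notch4 had to differ. For this reason nothing is read from the count. By cluster identity Notch1 was at -0.0928. All 3 were low, at 33.1, 5.49 and 3.70 CPM in the old cells, Jag2 rested on the cell named above, and 1 cell held 53.8% of the Notch4 counts, with 1.75 CPM left without it.

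The other 40 genes of the pathway were modifiers, cleavage enzymes, nuclear partners and further ligands and targets. Between ages, at least 2-fold apart, 2 of 40 were higher and 3 lower in old MSC-L, where 30 passed the filter and 25.4% of all genes differed, and 2 were higher and 0 lower in MSC-S, where 31 passed and 19.7% of all genes differed. In OPr 12 were higher and 7 lower, with 35 past the filter and a background of 45.2%, and in mOPr 5 and 2, with 29 and 44.5%. In AEC 1 was higher and 1 lower, with 33 and 21.1%, and in SEC 6 and 0, with 33 and 20.7%. In SEC, Efnb2, an arterial ephrin ligand, stood at 15.6 CPM in young and 89.8 CPM in old cells. It was carried by 65.2% of the SEC with Jag2 and by 11.0% of those without. The old value includes the old SEC in E3 or E4, where no young SEC lay, and their part in it was not tested. Between populations, AEC had 2 higher and 7 lower than SEC in young cells, with 31 past the filter and a background of 42.2%, and 4 and 6 in old cells, with 32 and 42.9%.

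Some of these genes differed between the sorts. Heyl, a further Hey-family target, stood at 181 and 92.6 CPM in young and old MSC-L and at 0 and 0.255 CPM in MSC-S. Within MSC-L it was carried by 46.9% of the 98 cells that carried Notch3 and by 46.2% of the 13 that did not (53.6% and 41.7% after thinning). The shares with and without Notch3 were 61.5% and 10.3% in mOPr, 27.8% and 5.45% in OPr and 46.2% and 0.870% in SEC (28.6% and 3.06% after thinning). In AEC they were 20.8% and 0 of 142 cells, which allows up to 2.11%. All 14 cells of cluster E1, most of them SEC, carried Notch3. The SEC compared here include the 12 young and 6 old ones that carried mesenchymal markers, and the OPr include the 8 old ones that carried hematopoietic markers. Across the mesenchymal sorts, Notch3 was carried by 97.7% of M1, 74% of M2 and 13.8% of M5 cells. Heyl was carried by 41.9%, 56% and 9.23% of these and Lfng by 79.1%, 40% and 12.3%. Cells with and without Notch3 thus also differed in cluster, and its part in these shares was not tested. Lfng, a glycosyltransferase that modifies Notch receptors, stood at 133 and 226 CPM in MSC-L, 3.47 and 5.26 in MSC-S, 219 and 229 in SEC and 57.4 and 50.7 in AEC. In MSC-L it was carried by 68.4% (58.2 to 77.4) of the cells with Notch3 and by 30.8% (9.09 to 61.4) of those without, and the intervals overlapped. Median counts were 400712 and 243473 in these sets, and after thinning the shares were 77.3% of 97 cells and 25% of 12. Lfng was carried by 53.8% and 10.3% of mOPr with and without Notch3 and by 55.6% and 18.2% of OPr, but by 73.1% and 76.5% of SEC and 29.2% and 37.3% of AEC. Mfng, of the same family, stood between 128 and 239 CPM in the 4 endothelial groups. In the mesenchymal groups it passed 1 CPM in old OPr, at 17 CPM, where 1 cell held 99.2% of the counts. Nrarp, a feedback target, stood at 20.4 and 25.1 CPM in AEC and 9.44 and 8.69 CPM in SEC, and at no more than 0.400 CPM in a mesenchymal group. Of its 2582 exon bases 2051 overlap a gene on the other strand, which these counts cannot separate.

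By Pearson correlation of log2(CPM + 1) over the 12 groups, which differ in depth and in library-number range, the genes most like Dll4 among 13265 were Sox17, Stc1 and Ppp1r16b (r of 0.998, 0.997 and 0.995). Those most like Notch4 were Adam10, Cd93 and Arap3 (0.972, 0.968 and 0.963). Jag2 was followed most closely by Podxl, Actn4 and Kif26a (0.988, 0.981 and 0.974). The values for Hey1 (Ptprg, Sipa1l2 and Gm37589 at 0.934, 0.932 and 0.925) and Hes1 (Chd4, Degs2 and RP23-293K21.1 at 0.889, 0.867 and 0.860) were lower.

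Since Notch3 and Lfng were both high in MSC-L and low in MSC-S, the 250 bases before their starts are shown, from RefSeq on GRCm38.p6. TGGGAA, the core that Rbpj binds, was searched on both strands, TTCCCA being its form on the other. It occurred in 21.6% of 32851 windows of this length, in 0 of 9 windows of the members matched by symbol, and in 12 of 43 windows of the other pathway genes. Hes1 and Hey1 were not among the windows. The 2 windows were picked after the matches had been seen. The Lfng window, chr5:140607091-140607340 on the plus strand, holds the letters at -135 and -108 from the start, and the Notch3 window, chr17:32166891-32167140 on the minus strand, does not hold them. Capitals mark the matches, which are a description of the letters and not sites.
Lfng: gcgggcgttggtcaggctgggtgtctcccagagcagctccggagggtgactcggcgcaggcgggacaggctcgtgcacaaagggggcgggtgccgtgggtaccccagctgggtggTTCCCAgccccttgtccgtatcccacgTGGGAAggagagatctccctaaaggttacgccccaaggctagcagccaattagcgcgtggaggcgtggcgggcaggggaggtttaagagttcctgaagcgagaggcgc
Notch3: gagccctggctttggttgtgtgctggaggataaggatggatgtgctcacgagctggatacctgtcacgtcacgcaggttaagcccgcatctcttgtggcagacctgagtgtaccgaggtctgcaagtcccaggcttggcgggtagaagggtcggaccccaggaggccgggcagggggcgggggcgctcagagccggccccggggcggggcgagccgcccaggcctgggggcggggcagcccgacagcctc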

How the data were processed

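The deposited counts are whole reads per gene and cell: the authors used GSNAP for alignment (mouse build GRCm38.p4, genes of Ensembl release 81) and HTSeq, ignoring strand, for counting. Symbols entered more than once were summed (270 repeats) and 37 mitochondrial genes removed, leaving 45771. Counts were summed per sorted population and age. Ratios used CPM plus 1 and were called at 2-fold among genes with 100 counts in 5 cells over the 2 groups together. Members and lists were chosen with earlier results of these data known. Named genes were all members, pathway genes at least 2-fold apart and above 10 CPM in a group, and the 3 most alike genes of 5 members. Clusters are the study's own. Alternatives were size factors, mean CPM, thinning to 100000 counts, a pseudocount of 0.1 CPM, no filter, cells left out, single library-number ranges and cluster identity. Python 3.11.15, numpy 2.4.6, pandas 2.3.3 and scipy 1.17.1 were used, and ratios were checked on simulated counts.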

Additional observations from a re-analysis of the deposited data

How the results depend on the processing

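No paired analysis was possible because the numbers in the labels count cells and the results come from no test. Of 118 recounts of the members at least 2-fold apart, 109 stayed within 1.5 times. Between ages in AEC, where the main count was 0, it was 3 in the lowest range alone (39.7% of all genes differed there), 3 in the highest (36.8%), 1 by cluster identity (23.4%) and 1 without mural-marker cells (22%, added after seeing the data). Between ages it was 0 in MSC-L in the lowest range (35.1%), 1 in mOPr without M1 and M2 (54.4%, also added), and 2 in SEC by cluster identity (21.8%). For old AEC against SEC it was 7 by cluster identity (45.5%), and for young MSC-L against MSC-S it was 3 in the lowest range (50%). Of single log2 ratios, 8 of 1180 changed sign after a call. Hes1 in MSC-L was 0.30 in the lowest range, and Notch1 in MSC-S was -0.0928 by cluster identity. Notch4 in OPr was -0.77 without cells of other lineages and -0.25 without the top cell. Notch3 in SEC was -0.29 without the top cell, -1.14 by cluster identity and -0.65 without mural-marker cells, and in young AEC against SEC it was -0.13 by cluster identity. The cause was not tested. A further 581 ratios were counted as moved against counting intervals, which are narrow because reads are not molecules. These intervals were taken without the added 1 CPM. Some main ratios lie outside their own, such as Hey1 between ages in SEC (4.33, interval 4.93 to 6.63). Nothing is thus read from that number. Of the shares of carrying cells, 115 stayed within their intervals after thinning and 5 did not. Single ranges were not run where SEC entered, since SEC lies in 1 range, nor cluster identity for mOPr, which has no cluster group of its own. The study reports several mice of each age, but the labels do not say which cells came from which mouse. With 1 sample a group, differences between mice and between ages cannot be told apart.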
